A study of Mus musculus with 48 samples.

Results

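The genes described here encode the nuclear subunits of oxidative phosphorylation, measured as mRNA in mouse liver. They were chosen by name: every array symbol of the Nduf a, b, c, s and v series, Sdha to Sdhd, the Uqcr series, Cox4 to Cox8 with a letter a to c, and the Atp5 series, without pseudogenes and numbered assembly factors. The rule found 81 of the 37074 genes on the array, and each was followed through its brightest probe on average over the arrays. The rule uses names and not responses, but it was set with earlier results of these data known. Of the 81, 80 were bright enough to be tested among 20486 genes, and 79 of these were well above background on all 48 arrays. The exception among the 80 was Cox8b, above background on 34 arrays, and Cox8c, which was above background on 0 arrays, was not tested.

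Oxidative phosphorylation is carried out in the inner mitochondrial membrane. Complex I (NADH dehydrogenase) and complex II (succinate dehydrogenase) pass electrons to ubiquinone, complex III (ubiquinol-cytochrome c reductase) passes them to cytochrome c, and complex IV (cytochrome c oxidase) passes them to oxygen, while complex V (ATP synthase) uses the proton gradient to make ATP. Most subunits are encoded in the nucleus and the others in mitochondrial DNA, and the liver relies on the chain to burn the fatty acids that arrive during a fast. The tested members were 7 core and 28 other subunits of complex I, 4 of complex II, 8 of complex III, 10 of complex IV, 17 genes of the complex V series and 6 isoforms known from other tissues or conditions. Not all of them are structural subunits: RefSeq now lists Atp5s as Dmac2l and Atp5sl as Dmac2, and Cox7a2l is known as a supercomplex assembly factor.

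The livers came from male mice with floxed p110α, the catalytic subunit of phosphoinositide 3-kinase that acts downstream of the insulin receptor. The p110α hep+/+ mice (LWT) carried the intact floxed gene, and the p110α hep-/- mice (LKO) also carried an albumin-Cre transgene, which drives the deletion in hepatocytes and is not meant to touch the other cells of the liver. From 12 weeks of age both genotypes ate a control diet (CTRL, D12450J) or a high-fat diet with 60% of calories from fat (HFD, D12492) for 12 weeks, and were then either fed ad libitum (FED) or fasted for 24 h (FASTED) before all were killed at Zeitgeber time 16. Each of the 8 combinations held 6 mice and each mouse had 1 array.

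On each array 52.3% to 59.3% of the spots were well above background, and 0 spots were saturated. The liver markers Alb, Apoa1, Ttr, Serpina1a, Cps1, Ass1, Tat and Cyp2e1 were above background on all 48 arrays. Some of these 8 were not stable: 2 to 3 were called higher and 0 to 1 lower in LKO, with Cps1 higher in all 4 conditions (log2 difference 0.53 to 1.35). With fasting 1 to 4 were higher and 0 to 1 lower, and on HFD 0 to 1 each way. In the limma fit the arrays had weights from 0.349 to 1.71, with LKO HFD FED replicate 3 at the bottom. The Pik3ca probe was not lower in LKO (log2 difference from LWT 0.39, 0.58, 0.08 and 0.25 in CTRL FED, HFD FED, CTRL FASTED and HFD FASTED). It was called higher in all but CTRL FASTED (limma adjusted p = 0.000403, 2.73e-07 and 0.0172). Since it was not established whether the probe lies in the deleted part, it does not check the genotypes, which were taken from the labels. Lists of markers of other cells moved in part between genotypes: 2 of 3 adipocyte markers tested were lower in LKO in all 4 conditions (Cidea from -8.26 to -5.84 and Cfd from -5.58 to -4.09). Plin1 of that list was not called. Cidea and Cfd were above background on only 14 and 20 of 24 LKO arrays, so the sizes of their differences are uncertain. Whether their signal came from adipocytes was not tested. In LKO 3 to 4 of 5 bile duct markers were lower and 1 to 5 of 6 endothelial markers higher, with Lyve1 of the endothelial list lower in CTRL FED (-1.13 ± 0.23) and HFD FED mice (-0.82 ± 0.23). At most 1 of 8 Kupffer cell and macrophage markers was called in either direction. Of the other lists, 1 to 3 of 7 stellate cell and fibroblast markers, 0 to 2 of 6 leukocyte markers, 0 to 2 of 3 pancreas markers and 0 to 1 of 5 erythroid markers were lower in LKO, and at most 2 of any of these lists were higher. In whole liver, fewer cells of a type and less RNA per cell cannot be told apart.

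The first question was whether the subunit genes shifted together with fasting, diet or loss of p110α, and the answer depended on how the arrays were brought to 1 scale. Values were compared under 3 scalings: quantile normalization, which gives every array the same distribution and is the main setting; alignment of the array medians; and processed signal divided by the 75th percentile of each array. Levels below are quantile-normalized log2 signal, and a gene was called at a limma adjusted p of at most 0.05 over all probes tested. Fold changes are fitted log2 differences of that signal with their standard errors after the ± sign. The level of the 80 genes as a group was the median of their deviations from their own means over 48 arrays. Under quantile normalization the group medians of this level were 0.083 in LWT CTRL FED, 0.003 in LWT CTRL FASTED, 0.101 in LWT HFD FED and 0.011 in LWT HFD FASTED. In LKO they were -0.021, -0.098, 0.039 and -0.111 in the same order. The fasted groups thus lay below their fed counterparts, and each LKO group below its LWT counterpart. Under median scaling the same medians were 0.027, 0.067, -0.045 and -0.051 in LWT and -0.008, 0.05, -0.04 and -0.092 in LKO, so that on CTRL diet the fasted groups lay above the fed ones. Scaling to the 75th percentile gave 0.035, 0.078, -0.054 and -0.06 in LWT and 0.002, 0.049, -0.016 and -0.076 in LKO, the same order of the CTRL groups as median scaling.

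**Figure D1:**
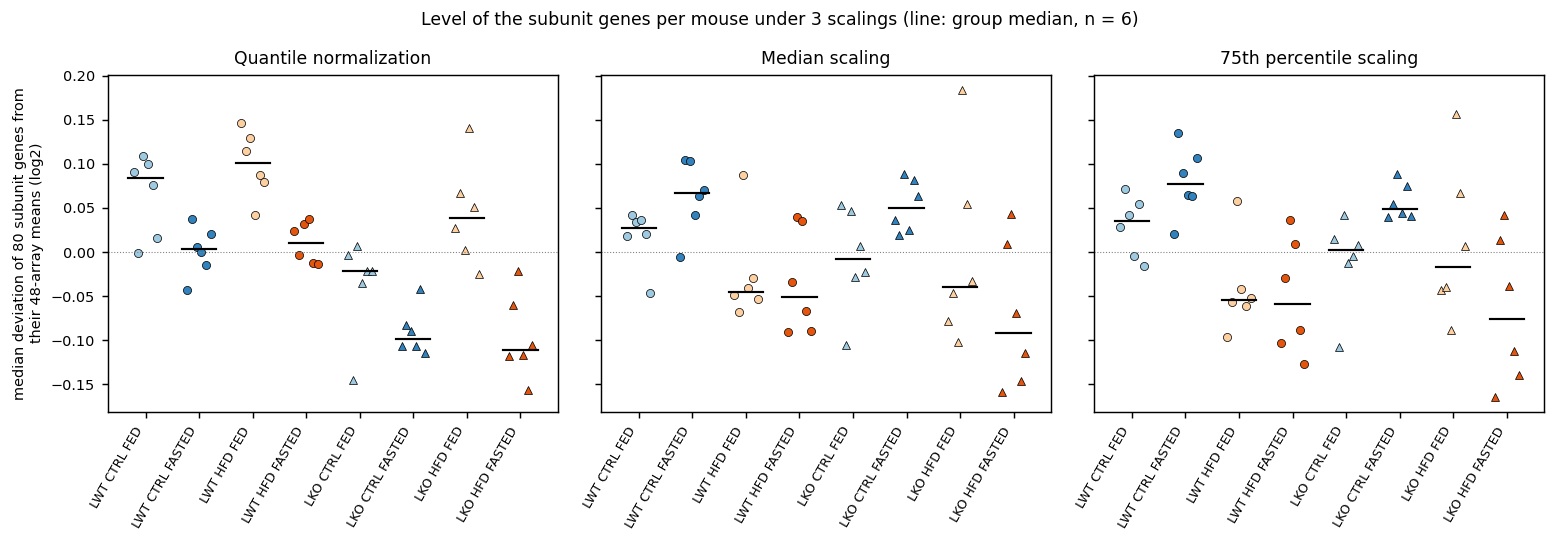
Level of the 80 subunit genes in each mouse under 3 scalings, as the median deviation (log2) from each gene's 48-array mean, with 1 point per mouse and a line at the median of the 6 mice. On CTRL diet the medians of the fasted groups lie below those of the fed groups after quantile normalization and above them after median or 75th percentile scaling, while single mice of the groups overlap under each scaling in at least 1 genotype.

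The arrays differed in spread between fed and fasted mice and between diets, and little between genotypes on CTRL diet. Before quantile normalization, the distance from the median to the 90th percentile of the tested probes was 4.54 ± 0.03 (SD, n = 6) in LWT CTRL FED and 4.61 ± 0.02 in LWT CTRL FASTED, and 4.55 ± 0.04 and 4.61 ± 0.03 in the matching LKO groups. On HFD it was 4.52 ± 0.04 fed and 4.56 ± 0.03 fasted in LWT, and 4.51 ± 0.07 fed and 4.53 ± 0.03 fasted in LKO. Quantile normalization removes such a difference and the other 2 scalings keep it. Its part in the shift of the subunit genes was not tested. The median log2 fold change of all tested genes stayed between -0.061 and 0.064 in every comparison and setting.

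The count of called genes is therefore given under each scaling, and single genes are described as changed where they were called in the same direction under all 3. This second rule was chosen after the scalings had been seen to differ.

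Fasting, which switches the liver to fatty acid oxidation, was compared with feeding in each genotype and diet, and the share of all tested genes called at the same scaling is given beside each pair of counts. In LWT CTRL mice 5 of 80 members were called higher and 25 lower, beside 16% and 16.6% of all genes. Under median scaling it was 19 higher and 3 lower, beside 18% and 13.5%, and under 75th percentile scaling 19 and 4, beside 20% and 14%. In LKO CTRL mice 6 were called higher and 22 lower, beside 16.4% and 19.2%. Either of the other scalings gave 21 and 4, beside 19.9% and 15.3% and then 20.4% and 17.8%. In LWT HFD mice 5 were higher and 34 lower, beside 13.8% and 14.8%. The other scalings gave 7 and 3, beside 15.8% and 12.7%, and 9 and 4, beside 17.9% and 13.2%. In LKO HFD mice 2 were higher and 43 lower, beside 14% and 14.7%. The other scalings gave 4 and 15, beside 15% and 13%, and 2 and 19, beside 15.7% and 13.7%. Fasting in LKO HFD mice was the only one of the 4 whose majority direction was the same under the 3 scalings, with median log2 fold changes of -0.146, -0.052 and -0.066. The corresponding medians were -0.057, 0.064 and 0.054 in LWT CTRL, -0.061, 0.057 and 0.054 in LKO CTRL, and -0.093, 0.001 and 0.001 in LWT HFD.

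Fewer members were called the same way under all 3 scalings. In LWT CTRL these were 4 higher and 3 lower, beside 15% and 12.6% of all genes, in LKO CTRL 6 and 4, beside 15.8% and 15.1%, and in LWT HFD 5 and 3, beside 13.2% and 11.8%. In LKO HFD mice 2 were higher (2.5%, beside 13% of all genes) and 15 lower (18.8%, beside 12.1%). Only the lower members of LKO HFD mice thus made up a larger share than among all genes. Markers of other cells also moved with fasting: 3 of 5 erythroid markers fell in LWT CTRL and 5 of 5 in LKO CTRL mice, against 0 on HFD, 1 to 4 of 7 stellate cell and fibroblast markers and 1 to 3 of 5 bile duct markers fell, and 0 markers of these 3 lists rose in any of the 4. Of 6 endothelial markers 1 fell in LWT CTRL and 3 fell in LWT HFD mice, while Lyve1 rose in LKO CTRL (1.07 ± 0.22) and LKO HFD mice (0.82 ± 0.25). Of 3 pancreas markers 2 fell in LKO CTRL mice, while Cela2a rose in LWT HFD (0.78 ± 0.20) and LKO HFD mice (1.53 ± 0.23) and Cela1 fell in the latter (-0.75 ± 0.17). Leukocyte markers were higher for 0 to 2 of 6, and of the Kupffer cell and macrophage, muscle and adipocyte lists at most 1 marker was called in any of the 4. Their part in the values of the subunit genes was not tested.

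The HFD was compared with CTRL diet in the same way. In fed LWT mice 11 members were called higher and 2 lower on HFD, beside 12.4% and 11.6% of all genes. Median scaling gave 0 and 9, beside 10.7% and 15.7%, and 75th percentile scaling 0 and 18, beside 11% and 15.9%. In fed LKO mice 18 were higher and 1 lower, beside 5.91% and 6.43%. With median and 75th percentile scaling it was 2 and 2, beside 4.84% and 7.64%, and 4 and 2, beside 5.45% and 8.02%. In fasted LWT mice 3 were higher and 1 lower, beside 8.99% and 7.05%. The other scalings gave 0 and 18, beside 7.2% and 11.8%, and 0 and 39, beside 8.03% and 12.9%. In fasted LKO mice 4 were higher and 4 lower, beside 5.67% and 5.17%. The other scalings gave 0 and 24, beside 3.94% and 8.21%, and 0 and 28, beside 5.19% and 8.34%. More members than the share of all genes were therefore lower on HFD in fasted mice under 2 scalings, and not under quantile normalization. Called the same way under all 3 were 0 higher and 2 lower in fed LWT, beside 9.53% and 10.9%, 2 and 1 in fed LKO, beside 4.38% and 5.87%, 0 and 1 in fasted LWT, beside 6.45% and 6.65%, and 0 and 4 in fasted LKO mice, beside 3.76% and 4.92%. Markers of other cells moved with HFD too: 4 of 7 stellate cell and fibroblast markers were higher in LWT mice, fed and fasted, 1 to 2 of 3 adipocyte markers were higher in each comparison, and 4 of 5 erythroid and 2 of 3 pancreas markers were higher in fasted LKO mice. In LWT mice 2 of 3 pancreas markers were lower fed and 1 lower fasted. Of 6 leukocyte markers 2 were higher and 2 lower in fed LWT and 3 higher and 1 lower in fasted LWT mice, with S100a8 and S100a9 higher in both. Of 3 muscle markers 1 was lower in fed LWT and 2 in fed LKO mice, of 6 endothelial markers at most 1 was higher and at most 2 lower in any comparison, and of the bile duct and of the Kupffer cell and macrophage lists at most 1 was called. Their part in the values of the subunit genes was likewise not tested.

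Loss of hepatocyte p110α was read as LKO against LWT under each condition. In CTRL FED mice 5 members were called higher and 31 lower in LKO, beside 11% and 10.7% of all genes. Median scaling gave 5 and 8, beside 11.8% and 10.5%, and 75th percentile scaling 6 and 11, beside 13.5% and 10.5%. In HFD FED mice 4 were higher and 22 lower, beside 16.6% and 16.4%. Here the majority turned, with 11 and 4, beside 18.5% and 15.1%, and then 23 and 2, beside 20.4% and 14.8%. In CTRL FASTED mice 2 were higher and 32 lower, beside 12.5% and 12.3%. With median and 75th percentile scaling it was 4 and 9, beside 13.2% and 11%, and 4 and 14, beside 13.4% and 12.6%. In HFD FASTED mice 2 were higher and 28 lower, beside 19.2% and 17.7%. The other scalings gave 4 and 16, beside 20.1% and 17.2%, and 7 and 12, beside 21.1% and 17.2%. More members were lower than higher in LKO under all 3 scalings in 3 of the 4 conditions, the exception being HFD FED. Under median and 75th percentile scaling the lower shares were 10% and 13.8% in CTRL FED, 11.2% and 17.5% in CTRL FASTED, and 20% and 15% in HFD FASTED. They lay below the share of all genes in CTRL FED under median scaling and in HFD FASTED under the 75th percentile, and above it otherwise. Cox8b, treated below, is counted in them.

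Called the same way under all 3 scalings were 4 members higher and 8 lower in CTRL FED, beside 9.92% and 9.14% of all genes, and 3 and 2 in HFD FED, beside 15% and 13.5%. In CTRL FASTED mice they were 2 and 9, beside 11.3% and 10.5%, and in HFD FASTED mice 2 and 11, beside 17.5% and 15.8%. Cox8b, which the filter on dim probes kept only for its LWT signal, is counted as lower in LKO in CTRL FED, CTRL FASTED and HFD FASTED mice under each scaling. Without it 7, 8 and 10 of 79 members were lower under all 3 scalings and none of these shares was above that of all genes. Most single differences were small: under quantile normalization at most 2 members passed a fold change of 1.5 in any of the 12 comparisons. The comparisons within a genotype, diet or state share groups of mice, so the 3 families of counts are not independent of each other.

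**Figure D2:**
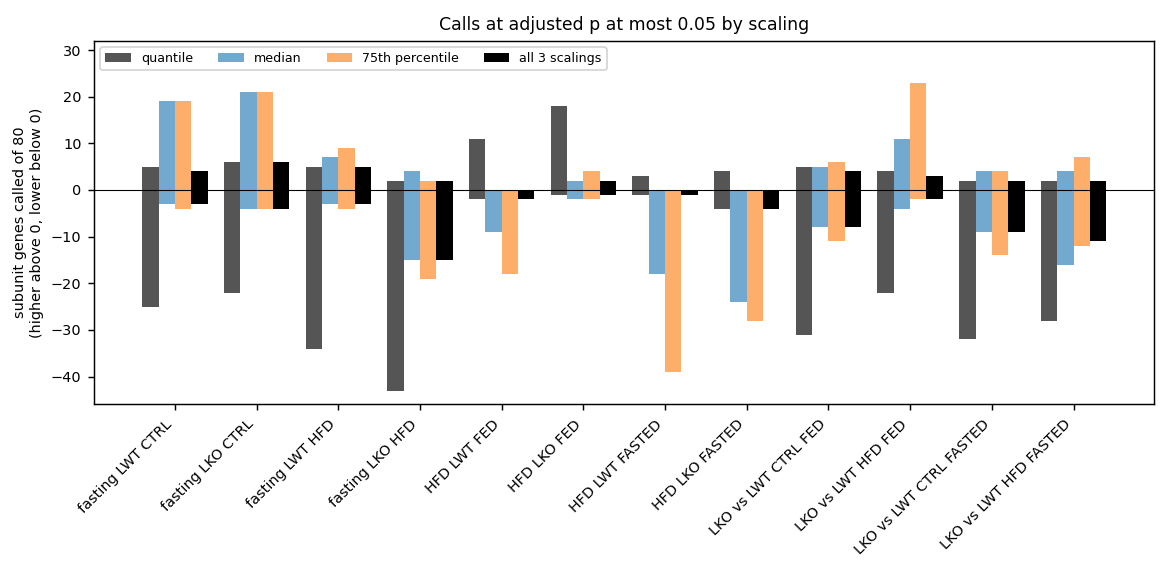
Number of the 80 subunit genes called higher (above 0) or lower (below 0) at an adjusted p of at most 0.05 in the 12 comparisons, under each of 3 scalings and under all 3 together. Fasting in LWT CTRL mice gave 5 higher and 25 lower after quantile normalization and 19 higher and 3 lower after median scaling, and 4 and 3 under all 3 scalings.

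Complex I takes electrons from NADH through 7 core subunits that carry the flavin and iron-sulfur clusters. With fasting on CTRL diet 0 core subunits were called higher and 1 lower in LWT after quantile normalization, against 5 and 0 under either of the other scalings, beside 18% and 20% of all genes called higher. The only core gene called in LKO CTRL under all 3 was Ndufs1, the largest core subunit (0.20 ± 0.06, adjusted p = 0.00546). Ndufs7, which holds the last iron-sulfur cluster before ubiquinone, was higher in LKO than in LWT in CTRL FED (0.16 ± 0.06, adjusted p = 0.0443) and in CTRL FASTED mice (0.16 ± 0.06, adjusted p = 0.0297).

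Ndufs8, another iron-sulfur subunit, rose on HFD in fed LKO mice and fell with fasting in LKO HFD mice. Its log2 signal was 14.36 at the lowest, 14.45 at the median and 14.52 at the highest in LKO CTRL FED, and 14.61, 14.67 and 14.77 in LKO HFD FED, with no overlap. In LKO HFD FASTED it was 14.32, 14.43 and 14.49. The rise on HFD was 0.23 ± 0.04 (adjusted p = 4.18e-05) and the fall with fasting -0.26 ± 0.04 (adjusted p = 4.35e-06).

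Among the 28 other subunits of complex I, which surround and stabilise the core, Ndufa8 gave the clearest fasting response. In LWT CTRL mice its log2 signal was 12.43, 12.63 and 12.67 (lowest, median, highest) fed and 12.13, 12.26 and 12.37 fasted, and in LWT HFD mice 12.57, 12.73 and 12.81 fed and 12.02, 12.22 and 12.34 fasted. In LKO it went from 12.44, 12.5 and 12.63 to 12.19, 12.29 and 12.4 on CTRL diet and from 12.24, 12.41 and 12.61 to 12.01, 12.11 and 12.21 on HFD. In all 4 comparisons every fasted mouse lay below every fed mouse. The log2 fold changes were -0.36 ± 0.06 (adjusted p = 1.88e-06), -0.48 ± 0.05 (adjusted p = 2.3e-09), -0.24 ± 0.06 (adjusted p = 0.000917) and -0.31 ± 0.06 (adjusted p = 0.000127), and all 4 were called under every scaling. Ndufa8, a twin cysteine motif protein of the intermembrane side, was the only subunit lower with fasting under all scalings in all 4. In HFD FED mice it was also lower in LKO than in LWT (-0.27 ± 0.06, adjusted p = 0.000279).

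Ndufs5, a second protein of the same kind, was lower both with fasting and in LKO. Its log2 signal in LWT was 15.13, 15.35 and 15.41 in CTRL FED, 15.03, 15.11 and 15.15 in CTRL FASTED, 15.4, 15.47 and 15.53 in HFD FED and 15.15, 15.22 and 15.29 in HFD FASTED. In LKO it was 14.88, 15.03 and 15.14, then 14.86, 14.88 and 14.95, then 15.04, 15.22 and 15.31, and 14.8, 14.88 and 14.95 in the same order. LKO and LWT mice overlapped only in CTRL FED, and there narrowly. The genotype differences were -0.29 ± 0.04 in CTRL FED (adjusted p = 1.54e-06), -0.24 ± 0.04 in HFD FED (adjusted p = 2.1e-05), -0.20 ± 0.04 in CTRL FASTED (adjusted p = 0.000289) and -0.36 ± 0.04 in HFD FASTED (adjusted p = 1.92e-08), of which CTRL FASTED was not called under all 3 scalings. The falls with fasting that held under all scalings were those on HFD, -0.25 ± 0.04 in LWT and -0.37 ± 0.05 in LKO. Ndufs5 was the member called most often after quantile normalization, in 11 of the 12 comparisons, while 7 members were called in 0. The same counts over all genes are not given here. Under all 3 scalings Ndufs5 was lower in LKO in 3 comparisons and lower with fasting in 2, and its HFD effects were called in 0.

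The largest genotype difference among the subunits known to be widely expressed was that of Ndufb3, a small membrane-arm subunit. In LWT mice its log2 signal hardly varied, with medians of 14.11, 14.1, 14.12 and 14.13 in CTRL FED, CTRL FASTED, HFD FED and HFD FASTED and a range over the 4 groups from 13.81 to 14.25. In LKO mice the lowest, median and highest values were 13.31, 13.5 and 13.74 in CTRL FED, 13.68, 13.74 and 13.78 in CTRL FASTED, 13.63, 13.89 and 14.03 in HFD FED, and 13.56, 13.68 and 13.8 in HFD FASTED. Under each condition every LKO mouse lay below every LWT mouse. The differences were -0.59 ± 0.06 in CTRL FED (1.5-fold, adjusted p = 8.96e-10), -0.37 ± 0.06 in CTRL FASTED (adjusted p = 4.18e-06), -0.25 ± 0.06 in HFD FED (adjusted p = 0.00134) and -0.45 ± 0.06 in HFD FASTED (adjusted p = 2.34e-07), with HFD FED not called under all 3 scalings. Within LKO, Ndufb3 rose on HFD in fed mice (0.36 ± 0.06, adjusted p = 6.28e-05) and with fasting on CTRL diet (0.22 ± 0.06, adjusted p = 0.00285), and the change on HFD in fed mice differed between genotypes (interaction 0.34 ± 0.08, adjusted p = 0.0197). That interaction was not called without array weights (adjusted p = 0.103), with no filter on dim probes (adjusted p = 0.0861) or with the fed arrays alone (adjusted p = 0.076).

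Other accessory subunits of complex I were lower in LKO under some conditions. In CTRL FASTED mice Ndufa1, Ndufa2, Ndufb3, Ndufs6 and Ndufv3 were lower under all scalings, from -0.37 for Ndufb3 and -0.27 for Ndufs6 to -0.22 for Ndufa2 on the quantile-normalized log2 scale. In HFD FASTED mice these were Ndufa10, Ndufa11, Ndufa3, Ndufb3, Ndufs5 and Ndufv3, and Ndufv3, a subunit of the NADH-binding tip, had the same difference of -0.26 ± 0.04 in both fasted comparisons. In CTRL FED mice Ndufa10, Ndufb3 and Ndufs5 were lower. The direction of Ndufa10 depends on the probe: in HFD FASTED mice the brightest of its 3 probes gave -0.27 and another -0.22, but the remaining one was called higher in LKO (0.33, adjusted p = 0.0023), and in CTRL FED mice that probe gave 0.04 and was not called. Of the 28, followed through their brightest probes, none was higher in LKO under all scalings in any of the 4 conditions. Of all genes 9.92%, 15%, 11.3% and 17.5% were, in CTRL FED, HFD FED, CTRL FASTED and HFD FASTED. In the fasting comparison of LKO HFD mice 8 of the 28 fell under all scalings, beside 12.1% of all genes (Ndufa11, Ndufa5, Ndufa8, Ndufb10, Ndufb2, Ndufb8, Ndufc2 and Ndufs5), and their quantile-normalized log2 fold changes ran from -0.37 for Ndufs5 to -0.23 for Ndufa5.

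**Figure D3:**
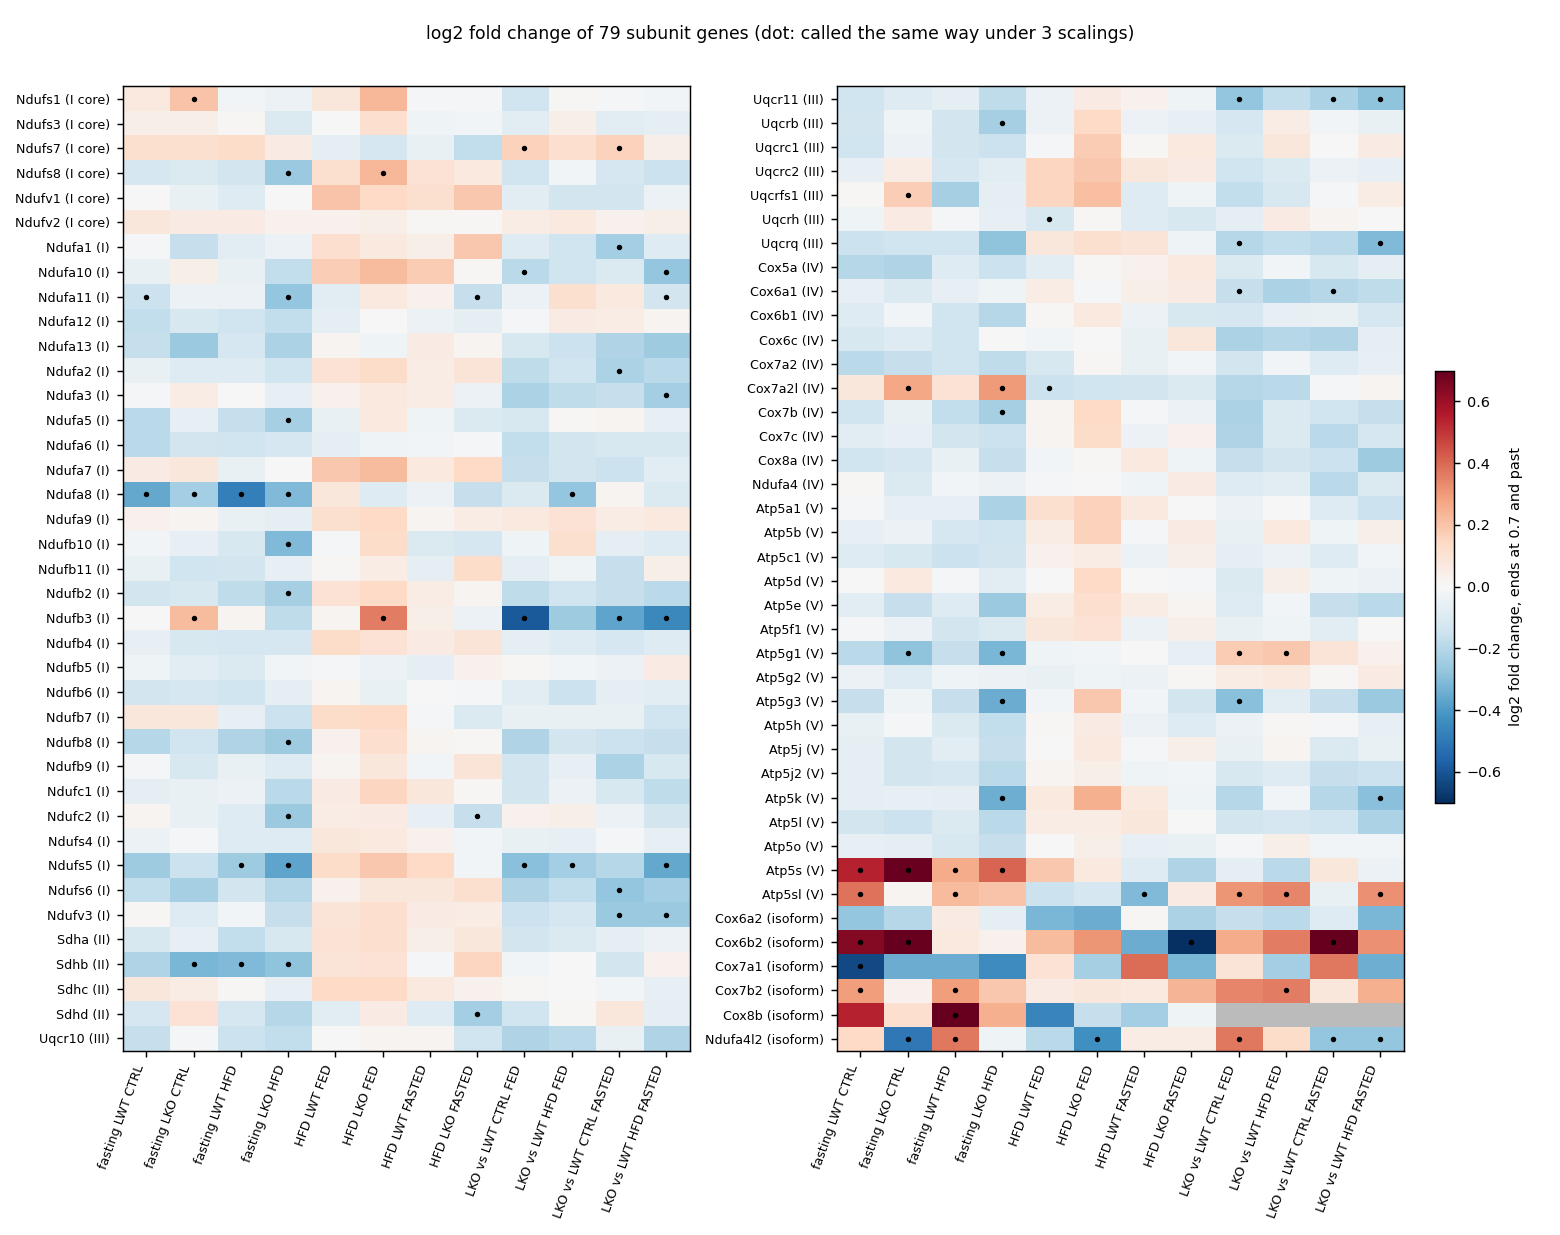
Log2 fold change after quantile normalization of 79 of the 80 subunit genes (rows, with the complex in brackets) in the 12 comparisons (columns), coloured from blue (lower) to red (higher) with the scale ending at 0.7 in each direction. Dots mark genes called in the same direction under all 3 scalings, such as Ndufa8 in the 4 fasting columns and Ndufb3 in 3 of the 4 LKO columns, and grey cells are the genotype comparisons of Cox8b, which are not shown.

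Complex II has 4 subunits, and it is also an enzyme of the citric acid cycle. Sdhb, the iron-sulfur subunit, fell with fasting. Its log2 signal in LWT HFD mice was 15.89, 15.93 and 15.95 fed and 15.47, 15.58 and 15.71 fasted, and in LKO HFD mice 15.8, 15.92 and 16.03 fed and 15.52, 15.62 and 15.79 fasted. In LKO CTRL mice it was 15.57, 15.82 and 15.9 fed and 15.25, 15.51 and 15.57 fasted. The HFD groups did not overlap, and the LKO CTRL groups met at 15.57. The falls were -0.31 ± 0.05 (adjusted p = 3.36e-06), -0.28 ± 0.06 (adjusted p = 0.000222) and -0.32 ± 0.05 (adjusted p = 3.82e-06). In LWT CTRL mice the value was -0.21 ± 0.05 (adjusted p = 0.00107) after quantile normalization but -0.06 and -0.08 under the other scalings, where it was not called. Sdhd, a membrane anchor, was lower on HFD in fasted LKO mice, at 14.45, 14.57 and 14.72 against 14.73, 14.83 and 14.97 on CTRL diet (-0.24 ± 0.06, adjusted p = 0.00459). The flavoprotein Sdha and the other anchor, Sdhc, were called the same way under all 3 scalings in 0 of the 12 comparisons.

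In complex III, Uqcr11, the smallest subunit, was lower in LKO. Its log2 signal in LWT was 16.14, 16.27 and 16.37 in CTRL FED, 16.15, 16.22 and 16.34 in HFD FED, 16.07, 16.13 and 16.2 in CTRL FASTED and 16.13, 16.16 and 16.19 in HFD FASTED. In LKO the values were 15.88, 15.99 and 16.09, then 16.01, 16.05 and 16.1, then 15.84, 15.91 and 15.95, and 15.84, 15.88 and 15.9. The genotypes did not overlap under any of the 4 conditions. The differences were -0.27 ± 0.04 (adjusted p = 4.62e-07), -0.17 ± 0.04 (adjusted p = 0.000289), -0.22 ± 0.03 (adjusted p = 8.19e-06) and -0.28 ± 0.04 (adjusted p = 9.83e-08), and all except HFD FED, where the other scalings gave -0.09 and -0.06, were called under 3 scalings. Uqcrq, a ubiquinone-binding subunit, was lower in LKO in CTRL FED (-0.20 ± 0.04) and HFD FASTED mice (-0.31 ± 0.04). The Rieske iron-sulfur protein gene Uqcrfs1 rose with fasting in LKO CTRL mice (0.17 ± 0.05, adjusted p = 0.00743), and Uqcrb fell with fasting in LKO HFD mice (-0.23 ± 0.05, adjusted p = 0.00022). Uqcrh, the hinge protein gene, fell on HFD in fed LWT mice (-0.11 ± 0.04, adjusted p = 0.047).

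**Figure D4:**
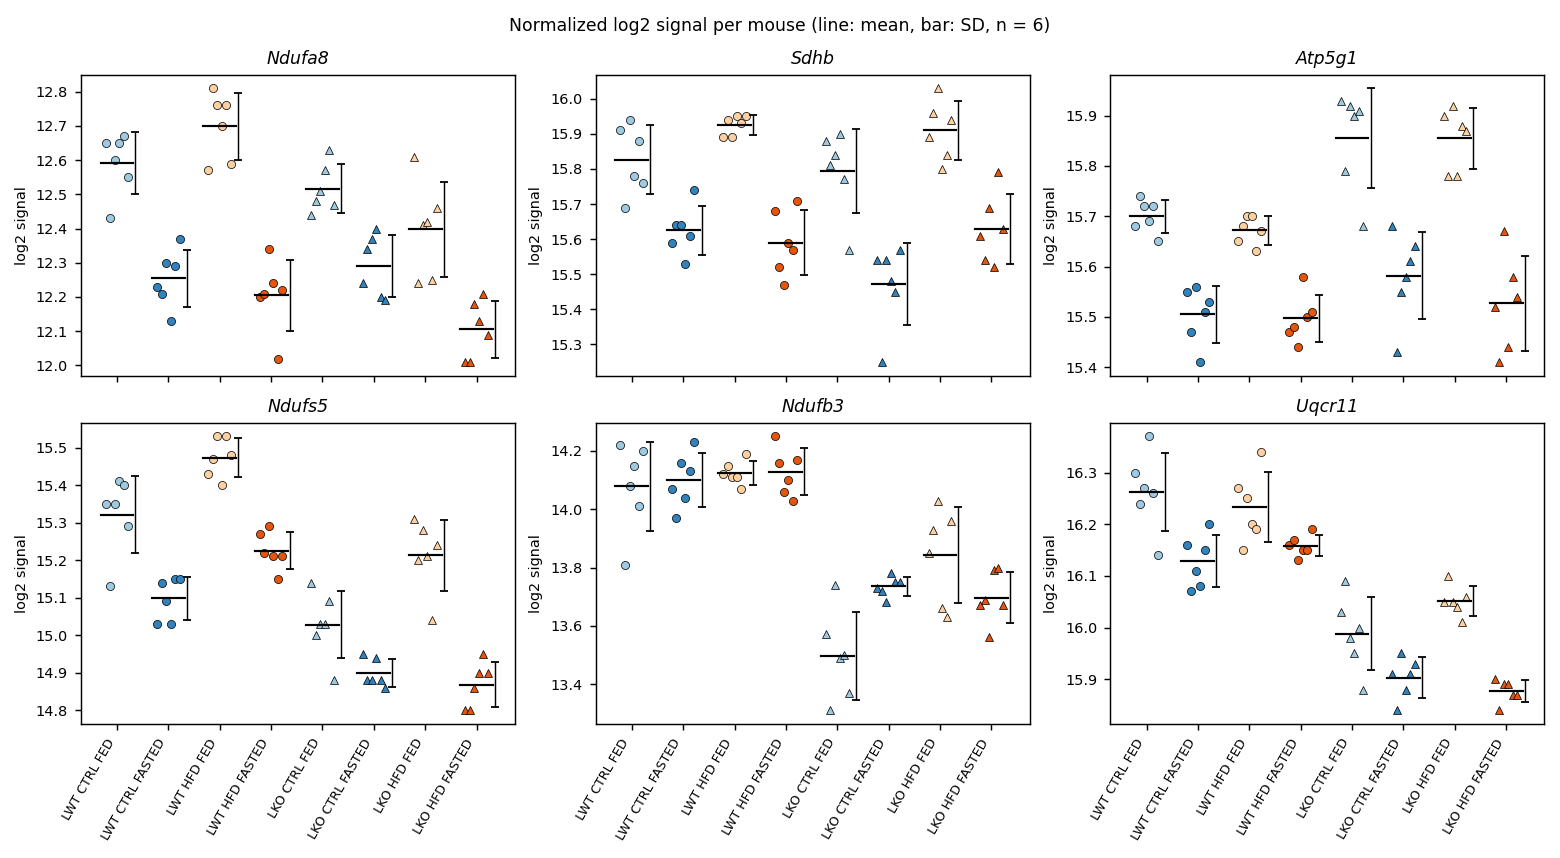
Quantile-normalized log2 signal of 6 subunit genes in each mouse, with a line at the mean and a bar of 1 SD for each group of 6. Ndufa8 is lower in every fasted mouse than in the fed mice of the same genotype and diet, and Ndufb3 and Uqcr11 are lower in every LKO mouse than in the LWT mice of the same diet and state.

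Among the complex IV genes, Cox6a1, the liver form of subunit 6A, was lower in LKO in CTRL FED (-0.16 ± 0.04, adjusted p = 0.00666) and CTRL FASTED mice (-0.20 ± 0.04, adjusted p = 0.000258), and its probe shares a stretch of 20 bases with a probe of another gene. Cox7b fell with fasting in LKO HFD mice (-0.23 ± 0.06, adjusted p = 0.00189). The others, Cox5a, Cox6b1, Cox6c, Cox7a2, Cox7c, Cox8a and Ndufa4, were called the same way under all 3 scalings in 0 of the 12 comparisons.

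Cox7a2l, whose protein joins complexes III and IV in supercomplexes, rose with fasting in LKO mice. In LKO CTRL mice its log2 signal was 14.13, 14.22 and 14.34 fed and 14.38, 14.5 and 14.53 fasted, with no overlap, and in LKO HFD mice 13.92, 14.09 and 14.3 fed and 14.28, 14.37 and 14.58 fasted. The rises were 0.27 ± 0.06 (adjusted p = 0.000415) and 0.30 ± 0.06 (adjusted p = 0.000401). In LWT mice the fasting values were 0.08 ± 0.06 and 0.10 ± 0.06 and were not called after quantile normalization. The interaction of genotype and fasting was 0.19 ± 0.08 on CTRL diet (adjusted p = 0.201) and 0.21 ± 0.09 on HFD (adjusted p = 0.19), so the genotypes are not shown to differ. On HFD it was lower in fed LWT mice (-0.15 ± 0.06, adjusted p = 0.0432).

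Complex V has a ring of c subunits, whose identical mature protein is encoded by the 3 genes Atp5g1, Atp5g2 and Atp5g3, and the 3 differed in their values. Atp5g1 in LKO was 15.68, 15.91 and 15.93 in CTRL FED and 15.43, 15.59 and 15.68 in CTRL FASTED, and 15.78, 15.88 and 15.92 in HFD FED and 15.41, 15.53 and 15.67 in HFD FASTED. It fell with fasting in LKO by -0.28 ± 0.04 (adjusted p = 9.9e-07) on CTRL diet and by -0.32 ± 0.05 (adjusted p = 1.06e-06) on HFD. In fed mice it was higher in LKO than in LWT, by 0.18 ± 0.04 on CTRL diet (adjusted p = 0.00213) and by 0.19 ± 0.04 on HFD (adjusted p = 0.000419). The direction with fasting belongs to this probe: a second Atp5g1 probe (chr11:95930317-95930376, against chr11:95934315-95934374 for the brighter one, mm9) was called higher with fasting in all 4 comparisons, by 0.22 to 0.34, and the brighter probe shares 20 bases with a probe of another gene.

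Atp5g3 was lower in LKO than in LWT in CTRL FED mice, at 16.08, 16.25 and 16.43 against 16.37, 16.58 and 16.73 (-0.29 ± 0.05, adjusted p = 3.93e-05). In LKO HFD mice it fell with fasting from 16.22, 16.5 and 16.57 to 16.08, 16.13 and 16.18, with no overlap (-0.35 ± 0.05, adjusted p = 4.33e-06). Another Atp5g3 probe was called in the opposite direction in 2 other comparisons, so here too the probes of a gene disagreed. Atp5g2 was called the same way under all 3 scalings in 0 of the 12 comparisons. Of the remaining genes of the complex, Atp5k (subunit e) fell with fasting in LKO HFD mice (-0.34 ± 0.07, adjusted p = 0.000271) and was lower in LKO in HFD FASTED mice (-0.29 ± 0.07, adjusted p = 0.00055). The genes of the catalytic head and its stalk, Atp5a1, Atp5b, Atp5c1, Atp5d and Atp5e, were called the same way under all 3 scalings in 0 comparisons.

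Atp5s (Dmac2l, known as coupling factor B) was the only member that rose with fasting in all 4 comparisons under every scaling. Its log2 signal was 6.06, 6.38 and 6.63 fed and 6.77, 6.87 and 7.0 fasted in LWT CTRL, and 6.04, 6.23 and 6.61 fed and 6.8, 6.97 and 7.28 fasted in LKO CTRL. On HFD it was 6.38, 6.53 and 6.61 fed and 6.47, 6.8 and 6.89 fasted in LWT, and 6.08, 6.33 and 6.53 fed and 6.56, 6.76 and 6.89 fasted in LKO. The groups overlapped only in LWT HFD. The rises were 0.54 ± 0.08 (1.46-fold, adjusted p = 1.76e-06), 0.69 ± 0.08 (1.61-fold, adjusted p = 1.27e-08), 0.26 ± 0.08 (adjusted p = 0.0131) and 0.41 ± 0.09 (adjusted p = 0.000706) in LWT CTRL, LKO CTRL, LWT HFD and LKO HFD. The probe is dim, and on the 75th percentile scale, which keeps the background-subtracted signal, the same changes were 0.80, 1.06, 0.38 and 0.58.

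Atp5sl (Dmac2, a factor for the membrane arm of complex I) was higher in LKO than in LWT. In LWT it was 10.99, 11.15 and 11.42 in CTRL FED, 10.92, 10.94 and 11.32 in HFD FED and 11.14, 11.19 and 11.43 in HFD FASTED, against 11.34, 11.45 and 11.63, 11.18, 11.35 and 11.54, and 11.37, 11.54 and 11.79 in LKO. The ranges overlapped in each of these pairs. The differences were 0.31 ± 0.08 (adjusted p = 0.00274), 0.34 ± 0.08 (adjusted p = 0.000623) and 0.32 ± 0.08 (adjusted p = 0.00131). In CTRL FASTED mice the value was -0.05 ± 0.07 (adjusted p = 0.702), where LWT mice stood at 11.4, 11.57 and 11.64. Atp5sl rose with fasting in LWT mice, by 0.38 ± 0.08 on CTRL diet (adjusted p = 0.00011) and 0.22 ± 0.07 on HFD (adjusted p = 0.0209), and it was lower on HFD in fasted LWT mice (-0.31 ± 0.07, adjusted p = 0.00305).

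The isoforms that are known from heart, muscle, brown fat, testis or hypoxic cells gave the largest fold changes, on probes of low signal. Cox6b2, the testis form of subunit 6B, was 6.34, 6.56 and 6.91 in LKO CTRL FED and 7.25, 7.87 and 8.42 in LKO CTRL FASTED mice, with no overlap (1.19 ± 0.17, 2.27-fold, adjusted p = 4.41e-07). In LWT CTRL mice it rose from 5.88, 6.2 and 6.8 to 6.43, 6.99 and 7.38 (0.64 ± 0.17, adjusted p = 0.00278). On HFD the fasting values were 0.07 ± 0.16 in LWT and 0.03 ± 0.19 in LKO, and neither was called. In fasted LKO mice it was lower on HFD than on CTRL diet (-0.84 ± 0.18, adjusted p = 0.00124), and in CTRL FASTED mice it was higher in LKO than in LWT (0.80 ± 0.17, adjusted p = 0.000313).

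Cox8b, the muscle and brown fat form of subunit 8, passed the filter on dim probes only through the LWT groups. In LWT it was above background on 6, 6, 5 and 6 of 6 arrays in CTRL FED, CTRL FASTED, HFD FED and HFD FASTED, and in LKO on 2, 3, 2 and 4. Its log2 signal in CTRL FASTED mice was 6.41, 6.83 and 6.95 in LWT and 5.29, 5.73 and 6.44 in LKO, a narrow overlap. In the other 3 conditions it was 5.84, 6.15 and 6.83 against 5.18, 5.51 and 6.58 (CTRL FED), 5.27, 5.73 and 6.34 against 5.11, 5.54 and 5.77 (HFD FED), and 5.84, 6.76 and 6.9 against 5.42, 5.73 and 6.27 (HFD FASTED), each with an overlap. Since a probe kept only for its LWT signal had to be dimmer in LKO, and much of the LKO signal was not above background, no fold change or p for single genotype comparisons of Cox8b is given, although it is counted in the totals above. In LWT HFD mice Cox8b rose with fasting (0.76 ± 0.19, adjusted p = 0.00225). Of 5 adipocyte markers 3 were tested, and Cidea and Cfd were lower in LKO in all 4 conditions, as given above, with signal above background on 14 and 20 of 24 LKO arrays, while Plin1 was not called and Adipoq and Ucp1 were not above the filter. The mean level of the 3 tested adipocyte markers ran from 7.8 to 11.95 over the LWT arrays and from 5.19 to 7.86 over the LKO arrays. Of 7 muscle markers 3 were tested, and their mean level ran from 5.72 to 6.61 in LWT and from 5.81 to 7.15 in LKO. The part of adipose RNA in the Cox8b levels was not tested.

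Ndufa4l2, the hypoxia-inducible relative of Ndufa4, fell with fasting in LKO CTRL mice and rose in LWT HFD mice. In LKO CTRL mice it was 8.12, 8.34 and 8.58 fed and 7.63, 7.82 and 8.09 fasted, with no overlap (-0.50 ± 0.08, adjusted p = 2.81e-06). In LWT HFD mice it was 7.69, 7.82 and 7.87 fed and 7.87, 8.19 and 8.28 fasted (0.37 ± 0.08, adjusted p = 0.000197). The fasting values in the remaining comparisons were 0.14 ± 0.08 in LWT CTRL and -0.03 ± 0.09 in LKO HFD, neither called. On HFD it was lower in fed LKO mice, at 7.85, 7.89 and 8.11 (-0.43 ± 0.08, adjusted p = 0.000394), the only member called lower under all 3 scalings in that comparison. The genotypes differed in the fasting response on CTRL diet (interaction -0.64 ± 0.11, adjusted p = 0.000659) and on HFD (-0.40 ± 0.12, adjusted p = 0.0444) under all 3 scalings. The call on HFD was lost with the replicate number as a block (adjusted p = 0.0549) and under 4 other settings (adjusted p from 0.0516 with the deposited values to 0.128 with no filter on dim probes). Against LWT, Ndufa4l2 was accordingly higher in LKO in CTRL FED mice (0.37 ± 0.08, adjusted p = 0.000842) and lower in both fasted comparisons (-0.27 ± 0.08 in each).

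The other 3 isoforms tested changed less often. Cox7a1, the heart and muscle form of subunit 7A, fell with fasting in LWT CTRL mice from 10.02, 10.3 and 10.55 to 9.42, 9.69 and 10.03 (-0.63 ± 0.17, adjusted p = 0.00335). Cox7b2, a testis form, rose with fasting in LWT mice by 0.29 ± 0.11 on CTRL diet (adjusted p = 0.0371) and 0.29 ± 0.10 on HFD (adjusted p = 0.0331), and was higher in LKO in HFD FED mice (0.36 ± 0.11, adjusted p = 0.0121). Cox6a2, the heart and muscle form of subunit 6A, was called in 0 of the 12 comparisons.

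**Figure D5:**
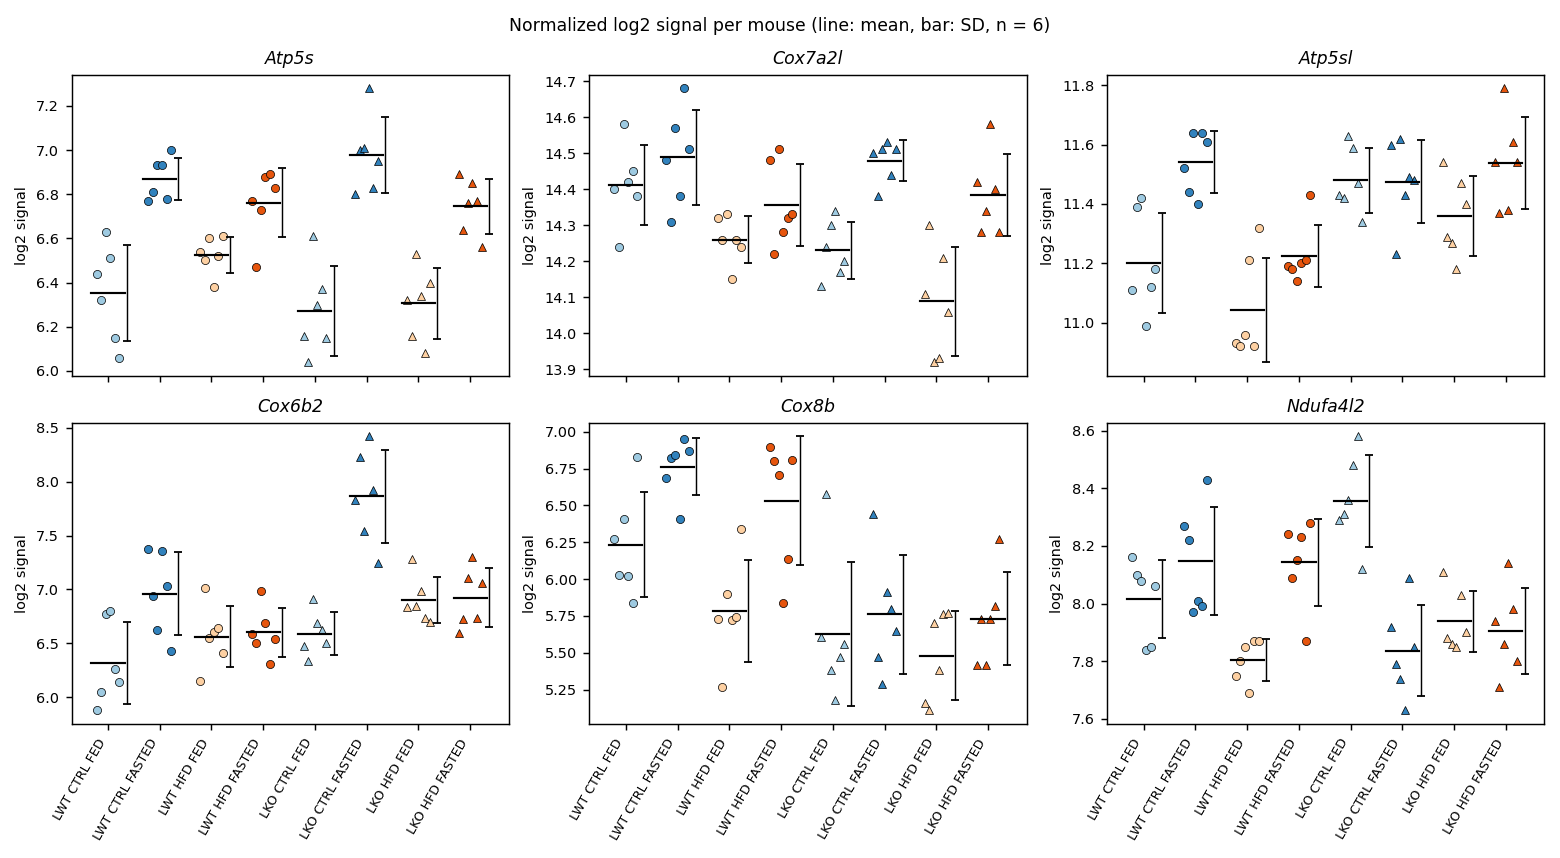
Quantile-normalized log2 signal of 3 accessory factors and 3 isoforms in each mouse, with a line at the mean and a bar of 1 SD for each group of 6. Atp5s is higher in fasted than in fed mice in each genotype and diet, Cox6b2 stands out in LKO CTRL FASTED mice, and Ndufa4l2 falls with fasting in LKO CTRL mice and rises in LWT HFD mice.

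The interaction of diet and fasting in LKO mice asks whether the fasting response differed between HFD and CTRL diet. After quantile normalization 12 of 80 members were called, 1 positive and 11 negative, beside 8% of all genes. Median scaling gave 1 and 12, beside 2.72% and 4.56%, and 75th percentile scaling 1 and 18, beside 3.17% and 4.77%. Under all 3 scalings 1 member was positive (1.25%, beside 2.46% of all genes) and 10 negative (12.5%, beside 3.81%), and the median over the 80 was -0.085, -0.111 and -0.125. The 10 negative ones were Atp5g3 (-0.32 ± 0.07, adjusted p = 0.00394), Cox6b2 (-1.16 ± 0.25, adjusted p = 0.00234), Ndufa11, Ndufb10, Ndufb3, Ndufb7, Ndufs5, Sdhd, Uqcrb and Uqcrfs1. They came from complexes I, II, III and V and, with Cox6b2, from the tissue-restricted isoforms. Of the 10 complex IV genes 0 were called after quantile normalization. The positive one was Ndufa4l2 (0.47 ± 0.12, adjusted p = 0.00813). With the median over a gene's probes the interaction of Atp5g3 was not called (adjusted p = 0.0975), and with no filter on dim probes that of Ndufs5 was not (adjusted p = 0.0656). Ndufb10, a complex I accessory subunit, shows the pattern: it was 15.62, 15.77 and 15.87 fed and 15.62, 15.74 and 15.83 fasted on CTRL diet, and 15.76, 15.91 and 16.01 fed and 15.52, 15.59 and 15.71 fasted on HFD (interaction -0.25 ± 0.06, adjusted p = 0.0098). Uqcrfs1 and Ndufb3 rose with fasting in LKO CTRL mice, and their interactions were -0.24 ± 0.07 (adjusted p = 0.0383) and -0.40 ± 0.09 (adjusted p = 0.00207). In the same interaction 2 of 3 pancreas markers (median 0.64) and 1 of 8 liver markers were called positive. The erythroid markers had a median of 0.83 with 0 of 5 called, and 0 markers of the remaining cell lists were called. Their part in the values of the subunit genes was not tested.

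In LWT mice the same interaction gave 0 calls among the 80 in limma, beside 2.36% of all genes. At an unadjusted limma p under 0.05 there were 6 members, beside 3392 of the 20486 genes. Median scaling gave 0 calls, beside 0.596% of all genes positive and 1.44% negative. The 75th percentile gave 0 positive and 1 negative, beside 0.693% and 1.7%. Whether the LKO and LWT interactions differ from each other was not tested. The remaining interactions held few members. Genotype by diet called 1 member in fed mice (Ndufb3, beside 3.03% of all genes) and 3 in fasted mice (beside 5.09%), of which 0 held under all scalings. Genotype by fasting called 2 on CTRL diet (beside 3.97%) and 2 on HFD (beside 3.49%), and those that held were Ndufa4l2 in both and Ndufa11 on HFD (-0.23 ± 0.05, adjusted p = 0.00799).

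The 250 bases before the start site were read from RefSeq (GRCm38.p6) for 5 short motifs of factors known to drive respiratory genes, on both strands. A window was found for 68 of the 81 members, 74 windows in all, and 32851 windows for all genes. The NRF1 motif (GCGC, any base, then TGCGC) was in 18.9% of the members' windows (14 of 74) and in 3.74% of all. The ETS motif CCGGAAG, read by GABP among others, was in 16.2% and 6.91%. The ERR motif CAAGGTCA was in 4.05% (3 of 74, in Atp5g3, Atp5l and Ndufs5) and 1.33%, the YY1 motif AAGATGGC in 2.7% and 1.56%, and the CCAAT box in 43.2% and 33.8%. A match is a description of letters and not a binding site. The 4 windows below are those of the gene that fell with every fast (Ndufa8), of the pair of complex I genes lower in LKO (Ndufs5 and Ndufb3) and of the c-ring gene with the diet by fasting interaction (Atp5g3), with matches in capitals.
Ndufa8, chr2:36049339-36049588, minus strand: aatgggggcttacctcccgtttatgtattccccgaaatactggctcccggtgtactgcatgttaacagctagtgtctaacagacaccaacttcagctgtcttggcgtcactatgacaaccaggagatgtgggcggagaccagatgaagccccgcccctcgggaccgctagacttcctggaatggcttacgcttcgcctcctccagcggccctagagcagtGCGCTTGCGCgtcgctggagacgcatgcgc
Ndufs5, chr4:123718187-123718436, minus strand: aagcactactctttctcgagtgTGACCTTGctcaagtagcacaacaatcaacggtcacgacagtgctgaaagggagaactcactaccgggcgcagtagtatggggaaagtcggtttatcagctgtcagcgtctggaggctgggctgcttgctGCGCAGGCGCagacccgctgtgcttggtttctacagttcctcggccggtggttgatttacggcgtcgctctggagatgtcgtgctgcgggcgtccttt
Ndufb3, chr1:58586147-58586396, plus strand: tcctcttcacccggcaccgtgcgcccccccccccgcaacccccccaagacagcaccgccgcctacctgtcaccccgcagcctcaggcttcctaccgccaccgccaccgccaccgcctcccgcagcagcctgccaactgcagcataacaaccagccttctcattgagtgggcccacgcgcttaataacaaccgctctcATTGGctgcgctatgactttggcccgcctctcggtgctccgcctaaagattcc
Atp5g3, chr2:73911327-73911576, minus strand: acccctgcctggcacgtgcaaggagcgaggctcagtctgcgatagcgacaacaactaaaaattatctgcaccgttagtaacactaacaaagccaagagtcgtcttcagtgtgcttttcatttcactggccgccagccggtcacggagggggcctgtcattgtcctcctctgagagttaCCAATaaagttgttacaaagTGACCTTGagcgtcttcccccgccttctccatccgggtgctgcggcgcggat
Counted back from the start site at the first base of the match, Ndufa8 had NRF1 letters at -30, Ndufs5 NRF1 letters at -98 and ERR letters at -228, Ndufb3 a CCAAT box at -53, and Atp5g3 ERR letters at -52 and a CCAAT box at -72. The members that changed thus did not share 1 of these motifs: the NRF1 letters were in the windows of 13 genes, among them Ndufa8, Ndufs5, Ndufa11, Ndufa5, Ndufs6, Sdhd, Cox6a1 and Atp5k, and not in those of Ndufb3 and Atp5g3. Those named were picked for their calls. The rest of the 13 were not called the same way under all 3 scalings in any pairwise comparison. The share with the motif was not compared between changed and unchanged members.

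The other genes of the pathway were followed as lists. Assembly factors, which build the complexes and insert their cofactors, were mostly lower where called in LKO, except in HFD FED mice. Of 44, called the same way under all 3 scalings were 13 lower and 1 higher in CTRL FED, beside 9.14% and 9.92% of all genes, and 4 and 3 in HFD FED, beside 13.5% and 15%. They were 13 and 0 in CTRL FASTED, beside 10.5% and 11.3%, and 20 and 2 in HFD FASTED, beside 15.8% and 17.5%. The medians over the 44 after quantile normalization were -0.12, -0.04, -0.10 and -0.18, and -0.11, -0.05, -0.10 and -0.18 after median scaling. Cox19, a copper-handling factor for complex IV, was lower in all 4 (-0.52, -0.76, -0.31 and -0.58, each ± 0.07 except 0.08 in the last). Cox18, which inserts the mitochondrially encoded Cox2, and Ttc19, a complex III factor, were also lower in all 4. With fasting 15 of the 44 fell and 4 rose in LKO HFD mice, beside 12.1% and 13% of all genes, and in the other 3 fasting comparisons the falls and rises were 9 and 6 (LWT CTRL), 6 and 7 (LKO CTRL) and 6 and 5 (LWT HFD), beside 12.6% and 15%, 15.1% and 15.8%, and 11.8% and 13.2%. Ndufaf5, which modifies Ndufs7, fell in all 4 (-0.47 ± 0.07, -0.52 ± 0.07, -0.32 ± 0.07 and -0.69 ± 0.08 in LWT CTRL, LKO CTRL, LWT HFD and LKO HFD), whereas Sco2, a copper chaperone of complex IV, rose in LWT CTRL (0.90 ± 0.13, adjusted p = 3.46e-07), LKO CTRL (0.63 ± 0.13) and LWT HFD mice (0.35 ± 0.12). With HFD 3 were higher and 5 lower under all scalings in fed LWT mice, beside 9.53% and 10.9% of all genes, 3 and 1 in fed LKO, beside 4.38% and 5.87%, 2 and 1 in fasted LWT, beside 6.45% and 6.65%, and 0 and 3 in fasted LKO mice, beside 3.76% and 4.92%.

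Several of the 20 regulators of mitochondrial gene expression rose with fasting. Called the same way under all 3 scalings were 9 higher and 1 lower in LWT CTRL, beside 15% and 12.6% of all genes, and 12 and 0 in LKO CTRL, beside 15.8% and 15.1%. They were 5 and 1 in LWT HFD, beside 13.2% and 11.8%, and 6 and 1 in LKO HFD, beside 13% and 12.1%. Ppargc1a, the coactivator PGC-1α, rose by 0.93 ± 0.14 (adjusted p = 1.86e-06) in LWT CTRL, 0.83 ± 0.15 (adjusted p = 1.62e-05) in LKO CTRL and 0.43 ± 0.14 (adjusted p = 0.0155) in LWT HFD mice. Its relative Ppargc1b and Tfb2m, a mitochondrial transcription factor, rose in all 4. In LKO against LWT, 8 regulators were higher and 1 lower in HFD FASTED mice, beside 17.5% and 15.8% of all genes, 5 and 2 in CTRL FASTED, beside 11.3% and 10.5%, 4 and 0 in HFD FED, beside 15% and 13.5%, and 2 and 1 in CTRL FED, beside 9.92% and 9.14%, with Nrf1 higher in all 4 (0.25, 0.26, 0.30 and 0.45 in CTRL FED, HFD FED, CTRL FASTED and HFD FASTED). Esrrg, the receptor ERRγ, was lower in LKO on CTRL diet (-0.77 ± 0.16 fed and -0.53 ± 0.15 fasted) and rose on HFD in fed LKO mice (0.87 ± 0.16, adjusted p = 0.000205). On HFD 3 regulators were lower and 0 higher under all 3 scalings in fasted LWT mice, beside 6.65% and 6.45% of all genes, and after quantile normalization alone 6 were lower, beside 7.05%. Under all 3 scalings Ppargc1b was lower in fed LWT and in both fasted comparisons.

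Of the 13 mitochondrially encoded subunits 11 were tested. In HFD FED mice 4 of them were higher in LKO under all scalings (ND1, ND2, ND4L and ND5) and 0 lower, beside 15% and 13.5% of all genes. In the other genotype comparisons, after quantile normalization, 1 was lower in CTRL FED, beside 10.7%, and 0 were called in either fasted one. With fasting 4, 2, 2 and 3 were lower in LWT CTRL, LKO CTRL, LWT HFD and LKO HFD, beside 16.6%, 19.2%, 14.8% and 14.7%. Under all scalings only ND3 was lower (LKO HFD), and ND2 and ND5 were higher (LWT HFD). ND5 gave 0.38 ± 0.07 (adjusted p = 4.29e-05) and ND2 0.26 ± 0.05 (adjusted p = 0.000192), and the HFD response of ND5 in fed mice differed between genotypes (interaction 0.43 ± 0.10, adjusted p = 0.0137). In fed LWT mice both were lower on HFD (ND5 by -0.27 ± 0.07 and ND2 by -0.14 ± 0.05). Of 7 members of the chain whose names fall outside the rule (Ndufab1, Cyc1, Cycs, Cox4i1, Cox4i2, Usmg5 and Atpif1), Cycs, the electron carrier cytochrome c, fell with fasting in LWT CTRL (-0.36 ± 0.06, adjusted p = 1.73e-06), LWT HFD (-0.33 ± 0.05) and LKO HFD mice (-0.38 ± 0.06). In LKO CTRL mice it was not called, and its fasting response differed between genotypes on CTRL diet (interaction 0.35 ± 0.08, adjusted p = 0.00807) and between diets in LKO (-0.36 ± 0.08, adjusted p = 0.004).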

How the data were processed

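Liver RNA of 48 mice was hybridised to 48 one-colour Agilent arrays by the authors, on 6 slides that each held 1 array of every group, washed in 2 batches of 3 slides. The deposited scanner files hold intensity values per spot from Agilent Feature Extraction 10.10.1.1 (per the submitters' processing notes), with probe positions on mm9. The authors also deposited a table of log2 values, normalized by them, which correlated with the values made here and was used as an alternative. That table held 32437 of the 56605 probes.

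Here log2 median intensity was used, spots marked as outliers were set missing and replicate spots averaged. Probes flagged well above background in 5 or more of the 6 arrays of any group were tested (30793 probes). The washing batch was removed with the group means protected, and arrays were quantile normalized. limma 3.58.1 in R 4.3.3 was fitted over all 48 arrays with array weights, with 18 contrasts and Benjamini-Hochberg adjustment over all kept probes. A gene was called at an adjusted p of at most 0.05 for its probe brightest on average. The members had 126 probes, 120 of them kept. Intervals are not given for single arrays, whose number per group limits the precision.

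Named members were, for each pairwise comparison, up to 3 called genes that rose most and up to 3 that fell most, the called genes of each interaction (at most 3 each way), the tissue-restricted isoforms, the c-ring genes, complex II and the members not tested. Genes called under all 3 scalings are named beyond that rule, after their values were seen. The members and lists were chosen with earlier results of these data known. The lists were the complexes, assembly factors, regulators, mitochondrially encoded subunits, chain members outside the rule and markers of other cell types. The 13 alternatives listed first and 2 added later are given in the closing section. The limma fit was tested on simulated data with known changes, read in a single comparison (HFD in LKO FED). The scalings and the other steps were not tested in this way. The values of 1 member, counted in all totals, are not reported here. Promoters were taken from RefSeq tables matched by symbol, 3 members by an older one.

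Replicate numbers did not pair the mice: deviations of same-numbered arrays had a mean correlation of 0.019 (-0.34 to 0.32).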

Additional observations from a re-analysis of the deposited data

Results flagged for a closer look

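Of 256 sets of 6 values tested for a mouse far from its group (the group level of the 80 genes and the named members), 11 held one, where chance gives about 1 in 20. The measure is the gap to the nearest mouse over the range of the group, compared with Dixon's 95% critical value. The lowest mouse of LKO CTRL FED (replicate 2) lay apart in the median deviation of the 80 genes (0.724, at -0.145) and for Cox7b2 (0.742, at 5.67). Replicate 6 of the same group was the highest for Cox6a2 (0.689, at 7.92) and Cox8b (0.693, at 6.58). The remaining ones were Atp5sl in LWT HFD FASTED replicate 3 (0.759, highest, 11.43), Ndufa1 in LWT HFD FED replicate 2 (0.706, lowest, 14.92), Ndufa11 in LWT CTRL FED replicate 4 (0.733, lowest, 11.71), Ndufa7 in LWT CTRL FASTED replicate 1 (0.765, lowest, 14.86), Ndufb11 in LWT HFD FASTED replicate 4 (0.636, lowest, 15.16), and Sdhd in LKO HFD FED replicate 2 (0.667, highest, 14.87) and LWT CTRL FASTED replicate 1 (0.692, lowest, 14.58).

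Responses that differed between groups by an interaction term in limma numbered 20 after quantile normalization. Not all of these calls held under the other settings. That of Ndufa10, for instance, was lost with median scaling (adjusted p = 0.0637), the 75th percentile (adjusted p = 0.0502) and the replicate number as a block (adjusted p = 0.0545). The HFD response differed between genotypes in fed mice for Ndufb3 (0.34, adjusted p = 0.0197) and in fasted mice for Atp5sl (0.37, adjusted p = 0.0386), Ndufa11 (-0.2, adjusted p = 0.023) and Ndufb11 (0.2, adjusted p = 0.0326). The fasting response differed between genotypes on CTRL diet for Atp5sl (-0.36, adjusted p = 0.0469) and Ndufa4l2 (-0.64, adjusted p = 0.000659), and on HFD for Ndufa11 (-0.23, adjusted p = 0.00799) and Ndufa4l2 (-0.4, adjusted p = 0.0444). Between diets in LKO mice the fasting response differed for Cox6b2 (-1.16, adjusted p = 0.00234), Ndufb3 (-0.4, adjusted p = 0.00207), Atp5g3 (-0.32, adjusted p = 0.00394), Sdhd (-0.3, adjusted p = 0.0177), Ndufb10 (-0.25, adjusted p = 0.0098), Ndufb7 (-0.24, adjusted p = 0.00812), Uqcrfs1 (-0.24, adjusted p = 0.0383), Ndufa11 (-0.23, adjusted p = 0.0042), Ndufs5 (-0.21, adjusted p = 0.0266), Ndufa10 (-0.21, adjusted p = 0.0448), Uqcrb (-0.2, adjusted p = 0.0421) and Ndufa4l2 (0.47, adjusted p = 0.00813).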

How the results depend on the processing

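Median scaling and 75th percentile scaling each moved 10 of the 18 counts of called members by over 1.5 times, and requiring a fold change over 1.5 moved 17. Each of the 2 scalings also moved 12 of the 18 median log2 fold changes by more than 1 SD between mice, and no other setting moved more than 4. Counts of called members, in the order fasting LWT CTRL, LKO CTRL, LWT HFD and LKO HFD, then HFD in LWT FED, LKO FED, LWT FASTED and LKO FASTED, then LKO against LWT in CTRL FED, HFD FED, CTRL FASTED and HFD FASTED, were 30, 28, 39, 45, 13, 19, 4, 8, 36, 26, 34 and 30 after quantile normalization. They were 22, 25, 10, 19, 9, 4, 18, 24, 13, 15, 13 and 20 with median scaling and 23, 25, 13, 21, 18, 6, 39, 28, 17, 25, 18 and 19 with the 75th percentile. Median log2 fold changes in that order were 0.064, 0.057, 0.001, -0.052, -0.040, 0.000, -0.090, -0.117, -0.019, 0.024, -0.010 and -0.018 with median scaling and 0.054, 0.054, 0.001, -0.066, -0.075, 0.022, -0.116, -0.119, -0.029, 0.067, -0.021 and -0.003 with the 75th percentile. The interactions moved less: median scaling called 1 member for genotype by diet in fasted mice and 1 for genotype by fasting on CTRL diet, and the 75th percentile called 19 for diet by fasting in LKO and 1 in LWT.

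With no filter on dim probes, which adds probes to the adjustment, fewer were called: 24 for fasting in LWT HFD, 6, 11, 2 and 5 for the HFD effects, 0 for either genotype by diet interaction and 1 for either genotype by fasting. With only the arrays of 1 nutritional state, HFD called 11 in LKO FED and 5 in LKO FASTED, and genotype by diet 0 fed and 1 fasted. Without array weights HFD called 2 in LWT FASTED, and genotype by diet 0 and genotype by fasting 1 in either case. Without the washing correction HFD called 5 in LKO FASTED, and 1 was called for genotype by diet in fasted mice and for either genotype by fasting. The deposited values called 1 for either genotype by fasting. Taking a gene's median over its probes called 20 for HFD in LWT FED, 3 for genotype by diet in fed mice, 1 for genotype by fasting on CTRL diet and 1 for diet by fasting in LWT, and gave a median of -0.046 for LKO in CTRL FASTED. Diet by fasting in LWT called 1 with normexp, with only probes above background on all arrays, and with the slide as a block. The fit with the replicate number as a block called 1 in place of 2 for genotype by fasting on HFD and moved no other count by over 1.5 times. A fold change over 1.5 left 2 for fasting on CTRL diet in either genotype, 1 for fasting in LWT HFD, 0 for fasting in LKO HFD, 1 for HFD in LKO FASTED and 0 in the other diet effects, 2 for LKO in CTRL FED and CTRL FASTED, 1 in HFD FASTED and 0 in HFD FED, 1 for diet by fasting in LKO, 1 for genotype by fasting on CTRL diet and 0 in the other interactions. Of all 20486 genes it left 388 to 1450 in the pairwise comparisons and 182 to 595 in the interactions. Within washing batch 1 the median for fasting in LKO HFD was -0.193, and within batch 2 it was -0.073, with -0.010 for fasting in LKO CTRL, -0.114 for LKO in HFD FED and -0.003 for genotype by fasting on HFD. Leaving out LKO HFD FED replicate 3, chosen after its weight was seen, moved 0 counts by over 1.5 times (19 became 21 for HFD in LKO FED and 12 became 14 for diet by fasting in LKO, for example) and 0 medians by over 1 SD.

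Of 145 called values of named members, 65 kept their direction and their side of the threshold under all alternatives with a test. Directions turned for Atp5g3 with fasting (75th percentile 0.007 in LWT CTRL and 0.161 in LKO CTRL, median scaling 0.007 and 0.135, median over probes 0.142 in LKO CTRL and 0.058 in LWT HFD), and for Atp5g3 with the median over probes on HFD in LKO FED (-0.012) and for LKO in CTRL FASTED (0.071). They turned for Ndufs8 with fasting in LKO CTRL (0.017 and 0.006 under the 75th percentile and median scaling) and on HFD in LWT FASTED (-0.013), for Ndufb11 on HFD in LKO FASTED (-0.006 and -0.018), and under the 75th percentile for Atp5g2 on HFD in LKO FASTED (-0.131), Ndufa7 (0.009) and Ndufv1 (0.006) for LKO in HFD FED. Uqcrh with fasting in LWT CTRL turned to 0.124 with median scaling, and Sdha for LKO to 0.123 in HFD FED and 0.186 in HFD FASTED with the median over probes. The causes were not tested.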
